A study of Mus musculus with 18 samples.

Results

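The mitosis genes are 44 mouse genes whose products drive or carry out cell division, taken as a list of symbols: cyclins and CDK1 partners, mitotic kinases, spindle checkpoint and kinetochore proteins, motors, condensins and the machinery that separates daughter cells. They were read on 18 Affymetrix arrays, on which a probe set, a group of short probes, reports the RNA of a transcript as an intensity on a linear scale. Of the 44 symbols, 43 had at least 1 probe set in the probe table used. Ccnb1 (cyclin B1) had none named to it there and has no value here. These 43 genes, of 18193 with a probe set, had 102 probe sets, of which 92 passed the filter on low values. All 43 passed it and entered the tests among 14432 genes. The 40th percentile of an array, an intensity of 36.6 to 38.7, served as the background bound, and no member's mean lay under it in any group.

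The cells were of the mouse strain C57/B6 and fell into 6 groups of 3 arrays. Embryonic stem (ES) cells, the neural progenitors made from them and the neurons made in turn were each either Hmgn1+/+, with both alleles intact, or Hmgn1-/-, with neither. Hmgn1 encodes a protein that binds nucleosomes and counters the compaction of chromatin. A commercial dopaminergic neuron differentiation kit gave the neural cells in culture. The ES cells were kept with LIF, either on fibroblast feeders that had been treated with mitomycin C or without feeders, with no statement of which arrays had which. The 3 arrays of each group are labelled as biological replicates, with no word on whether they were separate cultures, so the p-values measure only the spread between these arrays, which may be technical. The number of lines per genotype is not given either, so any other way in which the lines differ and the lost Hmgn1 cannot be told apart.

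In mitosis CDK1 with its cyclins starts chromosome condensation and spindle assembly, and the spindle checkpoint holds the cell until every kinetochore is attached. The anaphase-promoting complex then marks securin and the cyclins for destruction, the sister chromatids part and the cell divides. RNA of most of these genes is made late in the cell cycle, and in cells that stop dividing, as neurons do, it falls. Many of their promoters share short elements: CCAAT boxes, which bind NF-Y, and the cell cycle genes homology region (CHR), TTTGAA or TTCGAA, which binds MuvB complexes.

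Those elements were looked for in RefSeq promoter windows of the GRCm38.p6 assembly, from 250 bases before a gene's start to 50 after it, on both strands. Of the 44 genes, 38 had a window (40 windows in all). Either form of the CHR stood in 77.5% of the members' windows and in 19.2% of all 32851 windows in the table, or 13.7% of those of tested genes. The TTTGAA form made up most of these matches, with 72.5% of the members' windows against 17.9% of all. At least 1 CCAAT stood in 77.5% of the members' windows against 37.4% of all, at least 2 in 52.5% against 11.7%, and a CHR together with a CCAAT in 70.0% against 7.52%. CCAAT matches on opposite strands can overlap, as they do in Ube2c, and a match is a description of letters, not a bound site. Windows of 6 members are printed because their genes recur in the results: the first 5 hold both elements, and the last, of Pttg1, holds neither. Capitals mark CCAAT or its reverse complement ATTGG, and TTTGAA. Aurka is read on the minus strand at chr2:172370521-172370820, Cdca3 on the plus strand at chr6:124829926-124830225, Cdc20 on the minus strand at chr4:118437294-118437593, Plk1 on the plus strand at chr7:122159185-122159484, Ccnb2 on the minus strand at chr9:70421505-70421804 and Pttg1 on the minus strand at chr11:43425932-43426231.
Aurka: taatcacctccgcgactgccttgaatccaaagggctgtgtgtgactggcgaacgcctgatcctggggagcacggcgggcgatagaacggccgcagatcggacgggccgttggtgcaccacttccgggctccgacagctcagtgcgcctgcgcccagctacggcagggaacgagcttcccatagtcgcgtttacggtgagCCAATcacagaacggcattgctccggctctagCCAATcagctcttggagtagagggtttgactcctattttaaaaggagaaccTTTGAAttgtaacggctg
Cdca3: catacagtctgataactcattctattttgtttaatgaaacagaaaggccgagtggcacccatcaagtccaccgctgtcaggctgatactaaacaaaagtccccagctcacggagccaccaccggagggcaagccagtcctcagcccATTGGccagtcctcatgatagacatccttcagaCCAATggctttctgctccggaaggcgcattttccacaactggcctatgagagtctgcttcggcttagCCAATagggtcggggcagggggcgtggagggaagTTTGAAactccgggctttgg
Cdc20: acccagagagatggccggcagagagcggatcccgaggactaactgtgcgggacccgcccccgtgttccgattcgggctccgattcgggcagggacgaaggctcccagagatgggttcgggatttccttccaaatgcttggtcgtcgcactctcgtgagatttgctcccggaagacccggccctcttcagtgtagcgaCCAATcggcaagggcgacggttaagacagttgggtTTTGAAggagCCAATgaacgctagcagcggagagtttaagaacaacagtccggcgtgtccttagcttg
Plk1: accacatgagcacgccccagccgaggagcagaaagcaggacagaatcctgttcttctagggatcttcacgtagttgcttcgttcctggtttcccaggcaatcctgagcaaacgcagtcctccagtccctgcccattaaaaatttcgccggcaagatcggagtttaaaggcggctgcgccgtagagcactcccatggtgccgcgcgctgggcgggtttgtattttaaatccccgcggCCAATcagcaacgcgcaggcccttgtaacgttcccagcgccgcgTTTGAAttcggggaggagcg
Ccnb2: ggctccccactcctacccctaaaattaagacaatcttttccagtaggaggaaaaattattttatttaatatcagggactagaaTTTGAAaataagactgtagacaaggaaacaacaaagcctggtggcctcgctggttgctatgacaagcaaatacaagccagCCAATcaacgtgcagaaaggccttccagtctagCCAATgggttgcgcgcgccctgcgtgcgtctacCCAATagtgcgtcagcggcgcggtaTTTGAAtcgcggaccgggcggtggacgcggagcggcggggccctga
Pttg1: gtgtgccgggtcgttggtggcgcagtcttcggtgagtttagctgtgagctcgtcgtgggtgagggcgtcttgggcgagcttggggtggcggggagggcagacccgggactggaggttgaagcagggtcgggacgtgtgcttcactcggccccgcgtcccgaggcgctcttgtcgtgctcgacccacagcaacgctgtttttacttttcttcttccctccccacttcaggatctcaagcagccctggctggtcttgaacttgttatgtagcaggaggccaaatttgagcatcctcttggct
Besides Pttg1, the windows of Birc5, Mad2l1, Ncaph, Nuf2 and Plk4 held neither element in these 300 bases.

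Across genes, pairs of arrays correlated at r 0.995 to 0.998 within a group, 0.99 to 0.994 between genotypes of a cell type and 0.645 to 0.87 between cell types. Hmgn1 was lower in Hmgn1-/- cells on each of its 3 probe sets in every cell type, with log2 changes of -0.56 to -0.31, and was not at background. Where those probes lie relative to the inactivated part is not stated. All 10 neuron markers rose from progenitors to neurons in both genotypes. Of the 9 ES cell markers, Pou5f1, Nanog, Zfp42 and Tdgf1 had means under the background bound in neurons. The 9 summed to 50245.3 to 52815.9 in +/+ ES cells, 7205.5 to 7612.4 in +/+ progenitors and 8003.8 to 8560.9 in +/+ neurons. In -/- cells the sums were 48703.5 to 49611.1, 5965.1 to 6783.4 and 7506.5 to 8061.5. Markers of other cells were present in neurons too, with none of the progenitor and astroglia markers under the background bound. The progenitor markers summed to 2124.9 to 2472.6 in +/+ ES cells, 31744.6 to 32416.6 in +/+ progenitors and 27383.3 to 29646.7 in +/+ neurons. In -/- progenitors and neurons they summed to 33896.7 to 34503.2 and 32643.0 to 34075.4. The fibroblast and mesenchyme markers summed to 19746.4 to 21372.0 in +/+ and 32575.0 to 33986.8 in -/- progenitors. In neurons these sums were 20666.8 to 27235.2 and 30350.3 to 35554.9. Endoderm markers, at 314.1 to 368.2 in +/+ ES cells, summed to 8091.6 to 8263.5 in +/+ and 4391.2 to 4413.7 in -/- progenitors. In neurons they summed to 5171.7 to 8163.0 in +/+ and 5408.1 to 6206.4 in -/- cells. Of them Afp was under the bound in neurons of both genotypes and Gata4 in -/- neurons. In such bulk samples fewer dividing cells and less RNA per cell cannot be told apart.

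Across the 6 groups the members had a common shape, high in ES cells and progenitors and low in neurons. The mean level was highest in ES cells for 29 members, in progenitors for 14 and in neurons for none of the 43. It was lowest in -/- neurons for 41 members. The exceptions were Cdc25b, lowest in +/+ neurons, and Pttg1, lowest in +/+ progenitors. On each array, the median over the 43 members of the log2 deviation from the gene's own mean was 0.97 ± 0.03 in +/+ ES cells, 0.98 ± 0.03 in -/- ES cells, 0.69 ± 0.01 in +/+ progenitors and 0.73 ± 0.01 in -/- progenitors (SD, n = 3). It was -1.51 ± 0.18 in +/+ neurons and -1.81 ± 0.04 in -/- neurons. The heat map of the members by array shows the same shape gene by gene, with the Pttg1 and Bub3 rows as the palest.

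**Figure D1:**
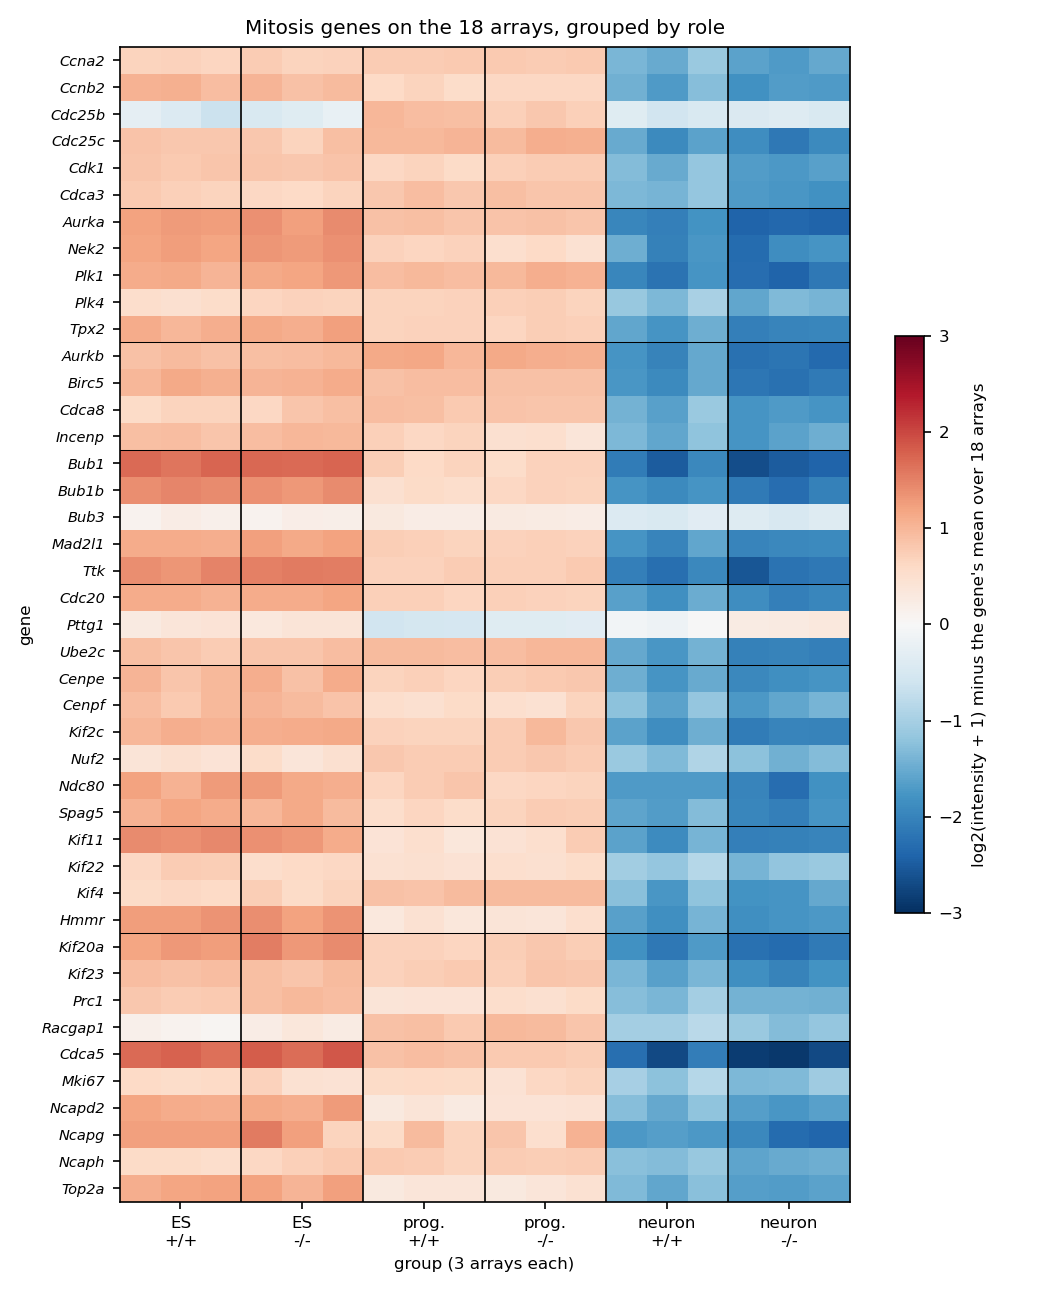
Each row is a mitosis gene, grouped by role between horizontal lines, and each column an array in 6 groups of 3. Colour gives log2(intensity + 1) minus the gene's mean over the 18 arrays. ES cells and progenitors are above the mean and neurons below it in nearly every row, and Pttg1 is the row whose lowest group is +/+ progenitors.

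Going from neural progenitors to neurons, 42 of the 43 members fell in each genotype and Pttg1 rose. Among all tested genes 44.4% fell and 34.6% rose in +/+ cells, and 45.6% fell and 35.2% rose in -/- cells. The members' median change was -2.19 (4.57-fold lower) in +/+ and -2.61 (6.12-fold lower) in -/- cells, against -0.11 and -0.13 over all tested genes. For all 42 genes that fell, the 3 neuron arrays lay below the 3 progenitor arrays in both genotypes. That separation was not counted over all tested genes. Both comparisons of neurons with ES cells share arrays with those of neurons with progenitors and are given only as counts. From ES cells to neurons 42 members fell in +/+ and 41 in -/- cells, where 45.2% and 45.9% of all tested genes fell.

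The 6 genes of the cyclin-CDK1 core, which drives entry into mitosis, all fell, with log2 changes of -2.67 to -1.40 in +/+ cells. Cdk1, the kinase itself, read 2593.3, 2667.5 and 2518.8 on the +/+ progenitor arrays and 684.4, 590.7 and 749.1 on the +/+ neuron arrays, 3.86-fold lower (log2 change -1.95, SE 0.07, limma adjusted p = 7.12e-14). Its 3 neuron arrays all lay far below the progenitor arrays. Ccnb2, a B-type cyclin, fell 4.22-fold and Ccna2, cyclin A2, 4.29-fold. Cdc25b, a phosphatase that switches CDK1 on, read 438.3, 419.0 and 410.6 in +/+ progenitors and 170.2, 149.0 and 160.8 in neurons. That was a smaller fall, 2.63-fold, and it returned the gene to its ES cell level: its change from ES cells to neurons was -0.02 in +/+ cells and -0.08 in -/- cells, and neither was called.

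Among the kinases, Aurka (Aurora A, which matures spindle poles) read 1317.9, 1333.3 and 1263.7 in +/+ progenitors and 183.2, 172.1 and 205.6 in +/+ neurons, a 6.96-fold fall. Plk1, the Polo kinase that acts through mitosis, fell 7.62-fold, and Plk4, which starts centriole duplication, 3.56-fold. The 4 genes of the chromosomal passenger complex, which corrects wrong attachments, fell, with log2 changes of -2.87 to -2.04. Its kinase gene Aurkb went from 1257.0, 1286.4 and 1144.4 to 166.3, 141.6 and 196.4 (7.33-fold).

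Among spindle checkpoint genes the falls differed widely in size. Bub1, a checkpoint kinase, fell 7.18-fold and Ttk, the kinase that starts the checkpoint signal, 6.94-fold in +/+ cells, while Bub3, the protein that brings BUB1 to kinetochores, fell 1.57-fold. Bub3 read 4863.6, 4612.7 and 4593.6 in +/+ progenitors and 2972.5, 2880.8 and 3113.4 in +/+ neurons. Its fall was the smallest of the 42 in both genotypes, with a log2 change of -0.65 (SE 0.05) in +/+ and -0.66 (SE 0.05) in -/- cells. Cdca5 (sororin, which protects cohesion between sister chromatids) fell the most, from 1769.1, 1830.2 and 1771.8 to 200.8, 147.3 and 229.2 in +/+ cells. This was 9.41-fold in +/+ (limma adjusted p = 8.27e-14) and 11.9-fold in -/- cells. Mki67, the gene of the proliferation antigen Ki-67, fell less than the median member: 3.06-fold in +/+ and 3.54-fold in -/- cells, from 2537.6, 2604.4 and 2556.0 to 855.8, 731.9 and 940.0 on the +/+ arrays. Top2a, topoisomerase II, fell 3.28-fold and 4.06-fold.

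The remaining roles lay between these values. The 6 kinetochore genes changed by -2.45 to -1.86 in +/+ cells, with Ndc80, a subunit of the complex that grips microtubules, at the lower end and Cenpf at the upper. The 4 genes of spindle motors and microtubule binding changed by -2.29 (Kif4, a chromosome-bound motor) to -1.48 (Kif22), and the 4 of the central spindle by -2.56 (Kif20a, a cytokinesis motor) to -1.63 (Prc1, which bundles midzone microtubules). Kif20a read 1243.0, 1229.2 and 1191.9 on the +/+ progenitor arrays and 215.2, 173.3 and 234.4 on the +/+ neuron arrays. Nuf2, the partner of NDC80, read 1109.3, 1082.8 and 1083.3 against 293.2, 253.1 and 338.4. Neither gene overlapped between the cell types. In -/- cells the change was more negative for each of these 14 genes, from -2.98 for Kif20a to -1.73 for Kif22.

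Pttg1 encodes securin, the inhibitor that is destroyed at anaphase. Its probe set read 2460.4, 2539.9 and 2595.5 in +/+ progenitors and 3477.2, 3333.1 and 3624.0 in +/+ neurons, and 2834.9, 2858.3 and 2881.2 against 4331.1, 4448.4 and 4544.5 in -/- cells. All neuron arrays lay above all progenitor arrays of the same genotype. The rise was 0.46 (SE 0.05, limma adjusted p = 2.06e-07) in +/+ and 0.64 (SE 0.05, limma adjusted p = 2.76e-09) in -/- cells. A second Pttg1 probe set rose by 0.30 in +/+ cells, whereas the dimmest, whose means in progenitors and neurons (57.2 to 64.8) were close to the array medians of 55.7 to 60.5, fell by 0.18. The probe set that stands for Pttg1 is of a kind (_s_at) whose probes can match several transcripts. Of the members' chosen probe sets, 8 were of that kind and 7 of the kind (_x_at) that can also match unrelated transcripts, Aurkb, Cdc20 and Kif2c among them.

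**Figure D2:**
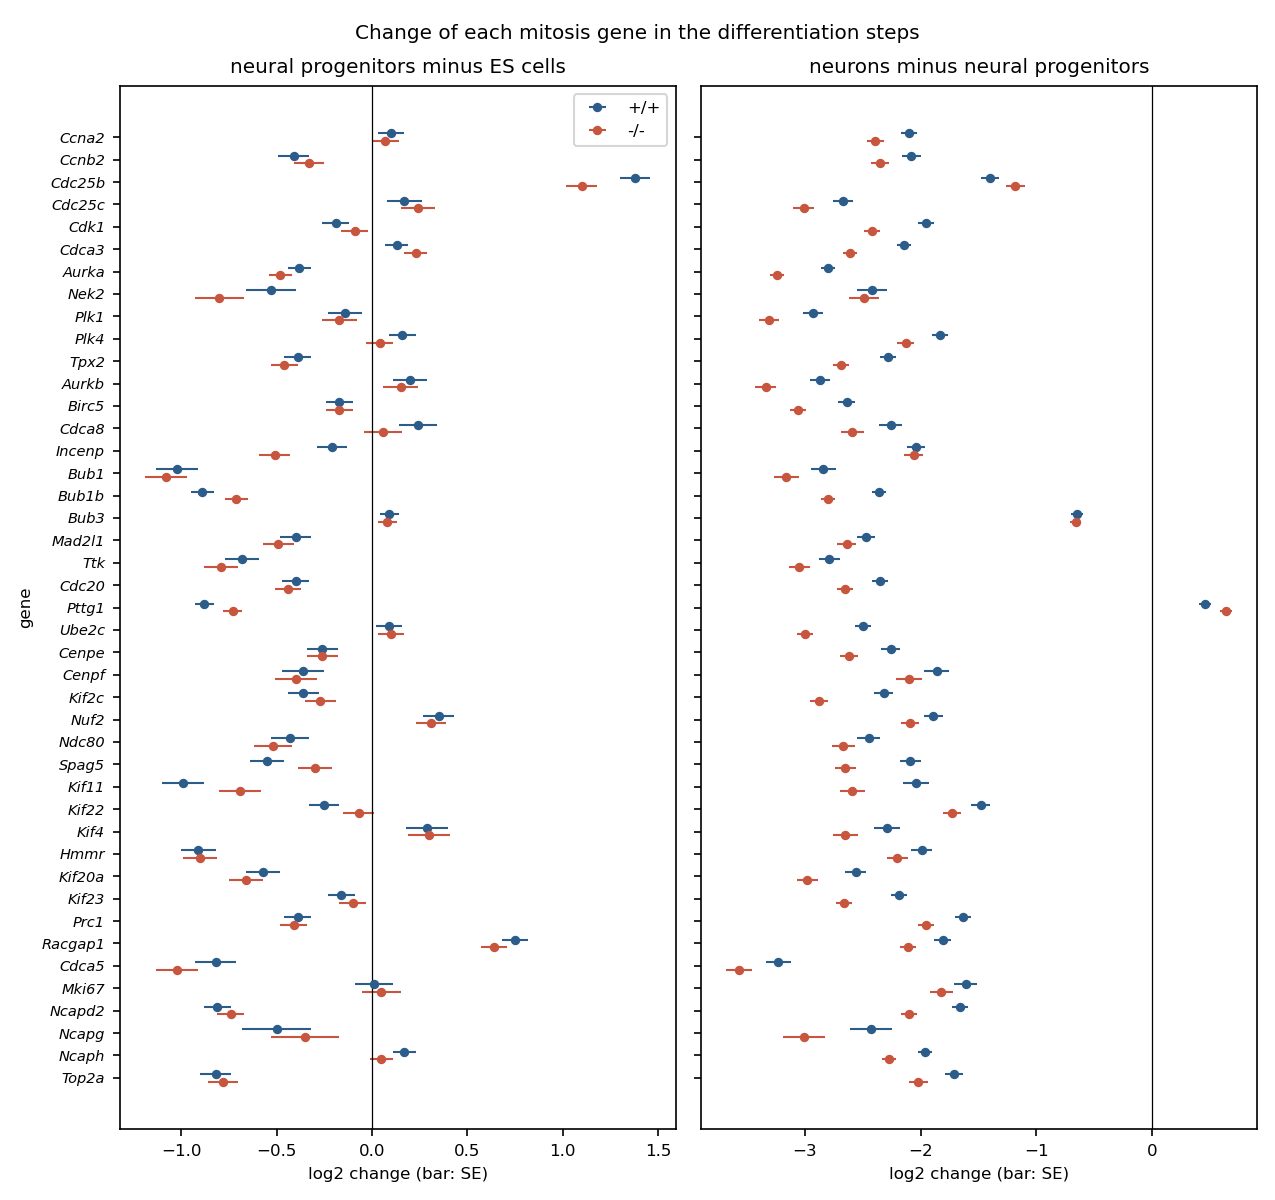
Points are log2 changes of each mitosis gene with the SE as a bar, progenitors minus ES cells on the left and neurons minus progenitors on the right, +/+ in blue and -/- in orange. On the left the points lie on both sides of 0. On the right all genes but Pttg1 lie below 0, from -0.65 for Bub3 to -3.23 for Cdca5 in +/+ cells.

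From ES cells to neural progenitors the members moved less and did not all go one way. In +/+ cells 28 fell and 7 rose, where 37.2% of all tested genes fell and 41.3% rose. In -/- cells 24 fell and 6 rose, where 38.0% fell and 39.8% rose. The members' medians were -0.36 and -0.30, and those of all tested genes 0.02 and 0.00. The largest falls in +/+ cells were in Bub1 and Kif11. Bub1 read 4531.3, 4215.7 and 4646.8 on the +/+ ES cell arrays and 2312.7, 2106.5 and 2196.4 on the +/+ progenitor arrays, and fell by 1.02 (SE 0.11, limma adjusted p = 1.87e-07). Kif11, the motor that pushes spindle poles apart, fell by 0.99, Hmmr, a spindle-binding protein, by 0.91, and Bub1b, the checkpoint protein BUBR1, by 0.89. Pttg1 fell by 0.88, Top2a and Cdca5 each by 0.82 and Ncapd2, a condensin subunit, by 0.81.

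The largest rise of that step was in Cdc25b. It read 182.0, 166.0 and 140.3 in +/+ ES cells and 438.3, 419.0 and 410.6 in +/+ progenitors, 2.60-fold higher (log2 change 1.38, SE 0.08, limma adjusted p = 8.75e-11), and it rose 2.14-fold in -/- cells. Racgap1, a regulator of the central spindle, rose by 0.75 and Nuf2, of the kinetochore's microtubule-binding complex, by 0.35 in +/+ cells. Kif4, Cdca8, Aurkb and Ncaph rose by 0.29, 0.24, 0.20 and 0.17. Mki67 changed by 0.01, Ube2c by 0.09 and Bub3 by 0.09, and none of these 3 was called. In this step 5 genes had probe sets called in opposite directions in +/+ cells, namely Aurkb, Bub3, Nek2, Racgap1 and Tpx2. A second Racgap1 probe set fell by 0.16 and a second Aurkb probe set by 0.45. Over the mean of its probe sets Aurkb turned to -0.12, so its direction in this step depends on the probe set read.

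Between genotypes, no member was called in ES cells (limma, 43 tested), where 10.5% of all tested genes rose and 4.32% fell. At an unadjusted p under 0.05, Racgap1 and Ncaph were higher in -/- ES cells, by 0.17 and 0.14 (limma adjusted p = 0.128 and 0.115). The members' changes ran from -0.15 for Kif11 to 0.18 for Kif20a, with a median of 0.04, equal to that of all tested genes. Of the 92 probe sets 2 were called there, neither of them the one that stands for its gene: the dimmest of Pttg1 rose by 0.33 and the dimmer of Ncapd2 by 0.30 (limma adjusted p = 0.00554 and 0.035 over probe sets). The share of all tested probe sets that were called is not given here. For 10 members all 3 -/- arrays lay above all 3 +/+ arrays and for 3 below, as for 20.1% and 8.23% of all tested genes. In neural progenitors Pttg1 alone was called, higher in -/- by 0.18 (SE 0.05, limma adjusted p = 0.0207), where 7.81% of all tested genes rose and 9.19% fell. Its 3 -/- arrays lay above its 3 +/+ arrays, but the call was lost over the mean of its probe sets and on leaving out any of 4 progenitor arrays (replicate 1 or 2 of +/+, replicate 2 or 3 of -/-). The other 42 ran from -0.22 for Incenp to 0.17 for Kif2c. Genotypes did not overlap for 11 members that were higher in -/- progenitors and 4 that were lower, as for 20.0% and 20.8% of all tested genes.

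In neurons, the members were lower in Hmgn1-/- cells. Of the 43, 27 fell and 1, Pttg1, rose, where 7.27% of all tested genes fell and 5.95% rose. The members' median change was -0.30 (1.23-fold lower) and that of all tested genes -0.02. Point estimates were below 0 for 41 members, and for 24 of them all 3 -/- arrays lay below all 3 +/+ arrays, as they did for 18.4% of all tested genes. They lay above for Pttg1 and for 13.1% of all tested genes. The falls were modest, from 1.18-fold for Racgap1 to 1.39-fold for Aurkb.

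**Figure D3:**
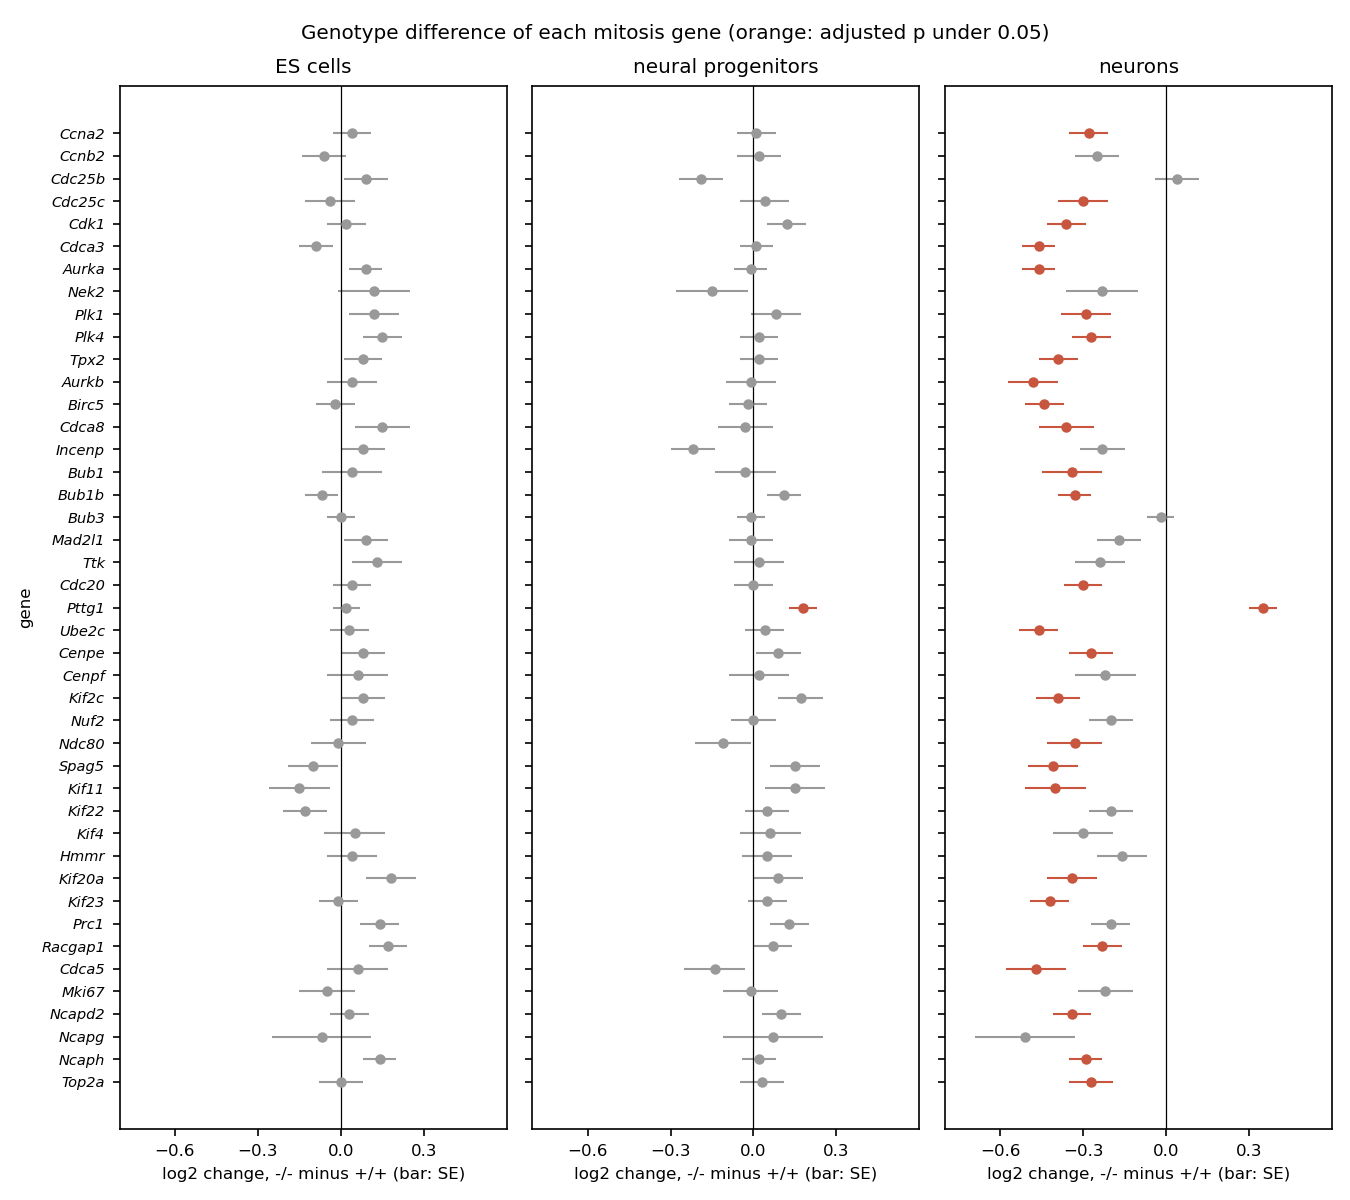
Log2 change of each mitosis gene between genotypes (-/- minus +/+), with the SE as a bar, in ES cells, progenitors and neurons; orange points have a limma adjusted p under 0.05. Points scatter about 0 in ES cells and progenitors and lie mostly left of 0 in neurons, where Pttg1 stands alone on the right at 0.35.

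The chromosomal passenger genes had the lowest median in neurons, -0.40 over 4 genes, 3 of which fell. Aurkb read 166.3, 141.6 and 196.4 in +/+ neurons and 120.8, 124.2 and 112.8 in -/- neurons. The groups did not overlap, and the change was -0.48 (SE 0.09, limma adjusted p = 0.0012). Birc5, which encodes survivin, fell by 0.44 and Cdca8, borealin, by 0.36, and the change of Incenp, the scaffold of the complex, was -0.23 (limma adjusted p = 0.08). Of the 5 Aurora A, Polo and NEK genes 4 fell. Aurka read 183.2, 172.1 and 205.6 in +/+ and 133.0, 139.0 and 134.8 in -/- neurons, lower on every -/- array, with a change of -0.46 (SE 0.06, limma adjusted p = 1.02e-04). Tpx2, the activator of Aurora A on the spindle, fell by 0.39.

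Of the 6 genes of the cyclin-CDK1 core 4 fell. Cdca3, which helps degrade the CDK1 inhibitor WEE1, read 564.9, 546.2 and 645.1 in +/+ and 439.7, 426.3 and 403.8 in -/- neurons, a change of -0.46 (SE 0.06, limma adjusted p = 8.66e-05), the smallest adjusted p among the members. Cdk1 read 684.4, 590.7 and 749.1 against 523.2, 506.8 and 539.4 and fell by 0.36 (SE 0.07, limma adjusted p = 0.00147). Both genes were separate between genotypes. Ccnb2, at 517.2, 428.0 and 576.0 against 398.8, 440.4 and 431.0, overlapped and was not called (change -0.25, limma adjusted p = 0.0575).

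Ube2c, the ubiquitin-conjugating enzyme that serves the anaphase-promoting complex, read 1053.5, 917.2 and 1142.4 in +/+ and 749.7, 762.2 and 736.6 in -/- neurons. Its change was -0.46 (SE 0.07, limma adjusted p = 1.45e-04), and no -/- array reached the lowest +/+ array. Cdc20, the activator of that complex, fell by 0.30. The kinetochore depolymerase Kif2c fell by 0.39, the spindle protein Spag5 by 0.41, the cytokinesis motor Kif23 by 0.42 and Kif11 by 0.40. Cdca5 fell by 0.47, the condensin subunits Ncapd2 and Ncaph by 0.34 and 0.29, and Top2a by 0.27. Bub1b fell by 0.33 and Plk1 by 0.29 (limma adjusted p = 0.00201 and 0.0459).

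The other genes that fell were Bub1 and Kif20a, each by 0.34, Ndc80 by 0.33, Cdc25c, a CDK1-activating phosphatase, by 0.30, Ccna2 by 0.28, the kinetochore motor gene Cenpe by 0.27, Plk4 by 0.27 and Racgap1 by 0.23. The calls of Bub1, Plk1 and Racgap1 were the least stable of those given, lost under 19, 15 and 10 of the 27 alternatives.

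The 15 members that were not called included Mki67, at 855.8, 731.9 and 940.0 in +/+ and 674.0, 684.3 and 813.7 in -/- neurons, where the groups overlapped (change -0.22, SE 0.10, limma adjusted p = 0.159). Bub3 differed by -0.02 (SE 0.05) and Cdc25b by 0.04 (SE 0.08). Ncapg, a condensin subunit, had the lowest estimate of all, -0.51, with an SE of 0.18 (limma adjusted p = 0.0816). Its second probe set fell by 0.44 (limma adjusted p = 0.0104 over probe sets). Estimates of the other 9 uncalled genes lay between -0.30 for Kif4 and -0.16 for Hmmr. They were Cenpf, Hmmr, Kif22, Kif4, Mad2l1, Nek2, Nuf2, Prc1 and Ttk. Over all 92 probe sets, 37 fell, 2 rose, both of Pttg1, and no gene had probe sets called in opposite directions between genotypes in neurons. Several of these probe sets report the same gene, and the share of all tested probe sets that were called is not given here.

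Pttg1 went the other way. Its -/- neuron arrays, at 4331.1, 4448.4 and 4544.5, all exceeded its +/+ arrays, at 3477.2, 3333.1 and 3624.0. It rose by 0.35 (SE 0.05, limma adjusted p = 1.28e-04), its second probe set by 0.23, and the dimmest differed by 0.16 without a call. Its level in -/- neurons (4441.3 ± 107, SD, n = 3) differed from that in -/- ES cells (4741.0 ± 139) by -0.09, which was not called, while the change from +/+ ES cells to +/+ neurons was -0.42 and was called. The other 2 probe sets of Pttg1 fell from ES cells to neurons in both genotypes, the second by 1.10 in +/+ and 0.83 in -/- cells and the dimmest by 1.25 and 1.42, so the level in -/- neurons relative to ES cells depends on the probe set read.

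**Figure D4:**
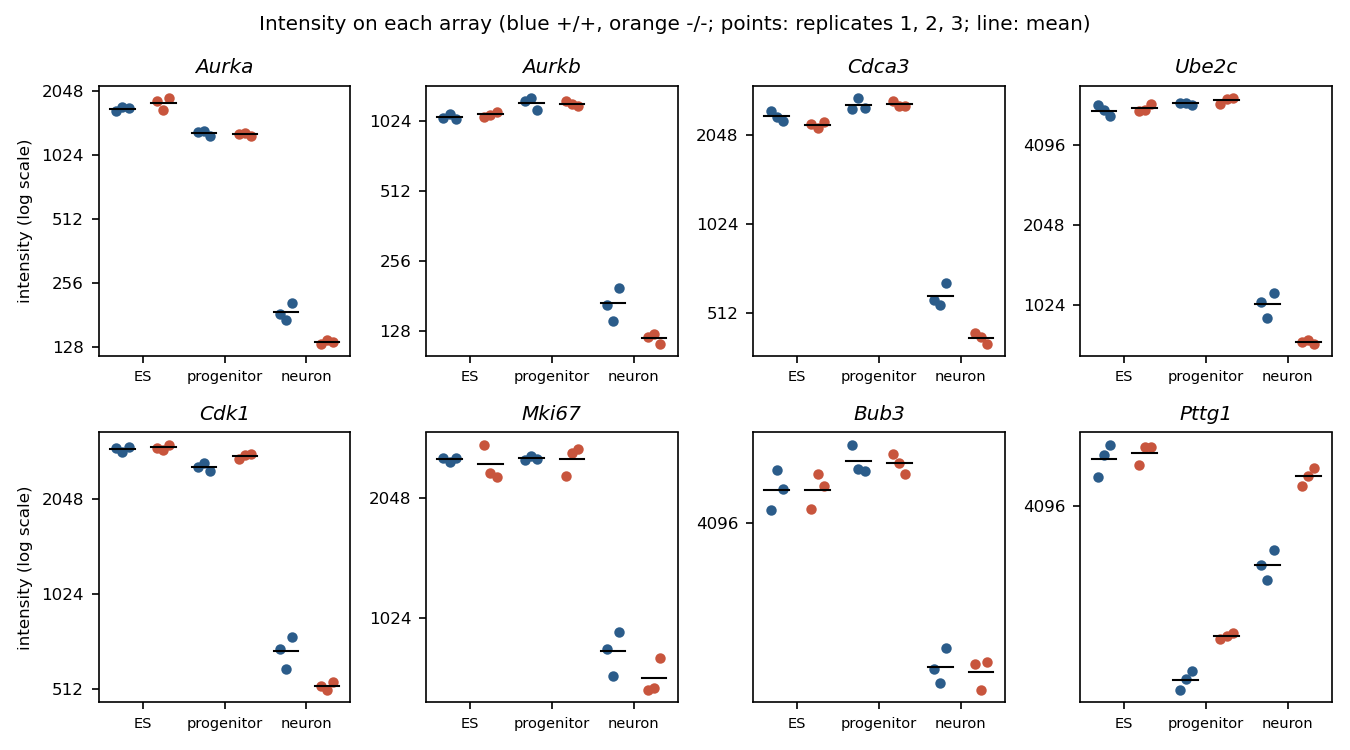
Intensity of 8 mitosis genes on each of the 18 arrays on a log axis, +/+ in blue and -/- in orange, with points for the 3 arrays of a group and a line for their mean. Each panel has its own axis. The neuron points of Aurka, Aurkb, Cdca3, Ube2c and Cdk1 are separate by genotype and those of Mki67 and Bub3 overlap, while Pttg1 rises from progenitors to neurons.

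The +/+ neuron arrays differed among themselves in these genes more than any other group. Replicate 2 was the lowest of the 3 for 42 of the 43 members, where 43.8% of all tested genes had their lowest value on it. Replicate 3 was the highest for 37 members, but the highest array was not counted over all tested genes. The members' median deviation was -1.45, -1.71 and -1.37 on replicates 1, 2 and 3 in +/+ neurons and -1.84, -1.83 and -1.77 in -/- neurons. The median member spanned 0.36 over the 3 +/+ neuron arrays, 0.15 over the -/- neuron arrays and 0.07 to 0.13 in the other groups. The genotype difference of a member exceeded that member's own span over the +/+ neuron arrays in 16 members. All tested genes were not counted in this way. The 43 genes thus moved together from array to array and are not 43 separate measurements of a genotype difference. Without +/+ replicate 3, 14 members fell, and without -/- replicate 2, 16 fell. Fitted on the 6 neuron arrays alone, 12 fell and Pttg1 rose. Without +/+ replicate 2, 37 fell. The share of all tested genes called under each of these settings is not given here. Whether calls were lost among the members more than elsewhere therefore cannot be read from these counts. Across all 27 alternatives 10 genes fell each time, Aurka, Aurkb, Birc5, Bub1b, Cdca3, Cdk1, Kif23, Ncaph, Tpx2 and Ube2c, and Pttg1 rose each time.

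Fibroblast and mesenchyme markers moved with the same arrays in +/+ neurons, but not in -/- neurons. The median log2 deviation of the 11 fibroblast and mesenchyme markers was 1.46, 1.24 and 1.72 on replicates 1, 2 and 3 of +/+ neurons, lowest and highest on the same arrays as the mitosis genes, and 2.18, 1.86 and 1.93 in -/- neurons. Within +/+ neurons these markers thus ordered the arrays as the mitosis genes did, while between genotypes they went the other way. Of the 11, 7 rose and 1 fell in -/- neurons, with a median of 0.70, where 5.95% of all tested genes rose and 7.27% fell. In progenitors 9 of them rose in -/- cells and none fell, where 7.81% of all tested genes rose and 9.19% fell. The markers' median there was 0.73, and that of the mitosis genes 0.02. The 10 neuron markers stood at 2.82, 2.89 and 2.76 in +/+ and 2.74, 2.65 and 2.70 in -/- neurons. Of them Nefl fell by 0.58 and Dcx by 0.29, none rose, and their summed intensity was 34021.8 to 38137.5 in +/+ and 32060.5 to 33175.9 in -/- neurons. Of the 9 progenitor markers Prom1 rose by 1.17, Pax6 fell by 0.32 and Nes by 0.30, and their median log2 deviation was 0.99 ± 0.03 in +/+ and 0.93 ± 0.06 in -/- neurons (SD, n = 3). Their summed intensity went the other way, 27383.3 to 29646.7 in +/+ and 32643.0 to 34075.4 in -/- neurons. Against 5.95% of all tested genes that rose and 7.27% that fell in neurons, 2 of the 7 astroglia markers rose and 1 fell. Of the 8 endoderm markers 1 rose and 5 fell, and of the 7 dopaminergic neuron markers 3 rose. The part of these cells in the genotype difference of the mitosis genes was not tested.

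The difference between cell types in the genotype effect was tested directly as an interaction. Against neural progenitors, the genotype effect in neurons was lower for 16 members and higher for none, where 5.41% of all tested genes were lower and 5.67% higher, and the members' median was -0.33. At an unadjusted p under 0.05, 30 members were lower and 1 was higher, but all tested genes were not counted at that looser threshold. For Kif2c, the -/- progenitor arrays, at 1362.0, 1571.3 and 1406.8, lay above the +/+ arrays, at 1302.1, 1267.6 and 1286.8. The -/- neuron arrays, at 186.1, 203.1 and 198.7, lay below the +/+ ones, at 263.4, 221.6 and 292.5. Its effect in neurons was thus lower by a log2 difference of -0.56 (SE 0.11, limma adjusted p = 0.00403). Against ES cells it was lower for 21 and higher for Pttg1, where 11.0% and 4.70% of all tested genes were, with a median of -0.35. Both tests use the same neuron arrays. Leaving out +/+ neuron replicate 2 raised the first count to 29 and the second from 22 to 34 members. The share of all tested genes called under that setting is not given here. Between progenitors and ES cells no member's genotype effect differed (limma), where 16.3% of all tested genes did. At an unadjusted p under 0.05, where all tested genes were again not counted, 3 members did, Cdc25b, Pttg1 and Incenp. Of the 92 probe sets 1 did, the dimmest of Pttg1, with a difference of -0.47 (SE 0.09, limma adjusted p = 0.00372 over probe sets). The share of all tested probe sets that did is not given here.

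Other genes of division and the cell cycle were counted in the same fits. Of 43 further mitosis genes tested, 42 fell from progenitors to neurons in each genotype, where 44.4% and 45.6% of all tested genes did. Their medians were -2.12 in +/+ and -2.38 in -/- cells. The exception was Ckap5, a microtubule polymerase, which rose by 0.26 and 0.34. In -/- neurons 16 of the 43 fell and none rose at a median of -0.20, where 7.27% of all tested genes fell and 5.95% rose. Among those that fell were Dlgap5, which stabilises kinetochore fibres, by 0.63, Cdca2 by 0.59, Gtse1 by 0.44 and Cep55, of the abscission step, by 0.38. Cdca2 also fell in -/- ES cells, by 0.67, as did Ska3, Smc4 and Dlgap5 by 0.42, 0.35 and 0.28, and these were the 4 of the 43 that fell there, where 4.32% of all tested genes fell.

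Genes of DNA replication followed the mitosis genes. All 34 tested fell from progenitors to neurons in both genotypes, where 44.4% of all tested genes fell in +/+ and 45.6% in -/- cells. The 34 fell by a median of 2.25 in +/+ and 2.42 in -/- cells. In -/- neurons 18 fell and none rose (median -0.25), where 7.27% of all tested genes fell and 5.95% rose. Tk1 (thymidine kinase) was at -0.78, Cdc6 and Mcm5, which license origins, at -0.58 and -0.55, and Gmnn (geminin) at -0.52. The 34 genes' median deviation was -1.59, -1.86 and -1.59 on the +/+ neuron replicates 1, 2 and 3, so replicate 2 was again lowest. In -/- neurons it was -1.91, -1.88 and -1.83.

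Of the 15 G1 cyclins and CDK inhibitors, 12 rose from ES cells to +/+ progenitors, where 41.3% of all tested genes rose, and Ccne1 (cyclin E1) fell, by 1.56, while Ccnd2 (cyclin D2) rose by 4.60 and the inhibitor Cdkn1c by 2.92. In -/- neurons Ccnd2 fell, by 0.34, and none of the 15 rose, a count near the 7.27% and 5.95% of all tested genes that fell and rose. The anaphase-promoting complex, whose subunits are made throughout the cycle, fell little from progenitors to neurons, at a median of -0.30 in +/+ cells. There 11 of its 13 genes fell, where 44.4% of all tested genes did. In -/- neurons only its late activator Fzr1 (CDH1) fell, by 0.18, where 7.27% of all tested genes fell. Of 20 regulators that switch genes of division on or off, 17 fell from progenitors to neurons in +/+ cells, where 44.4% of all tested genes did. The 2 that rose were Rb1 and Rbl2 of the retinoblastoma family, by 1.41 and 1.44, where 34.6% of all tested genes rose. In -/- neurons E2f8 fell by 0.41, E2f7 by 0.39 and Mybl2, the B-MYB factor that joins MuvB, by 0.36. Of all tested genes 7.27% fell there. The median log2 deviation over the regulators was -0.66 ± 0.07 in +/+ and -0.76 ± 0.04 in -/- neurons (SD, n = 3). Of the 12 genes that restrain mitotic entry none fell in -/- neurons, where 7.27% of all tested genes fell. Gadd45b, a stress-induced one, rose by 0.49, where 5.95% of all tested genes rose.

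**Figure D5:**
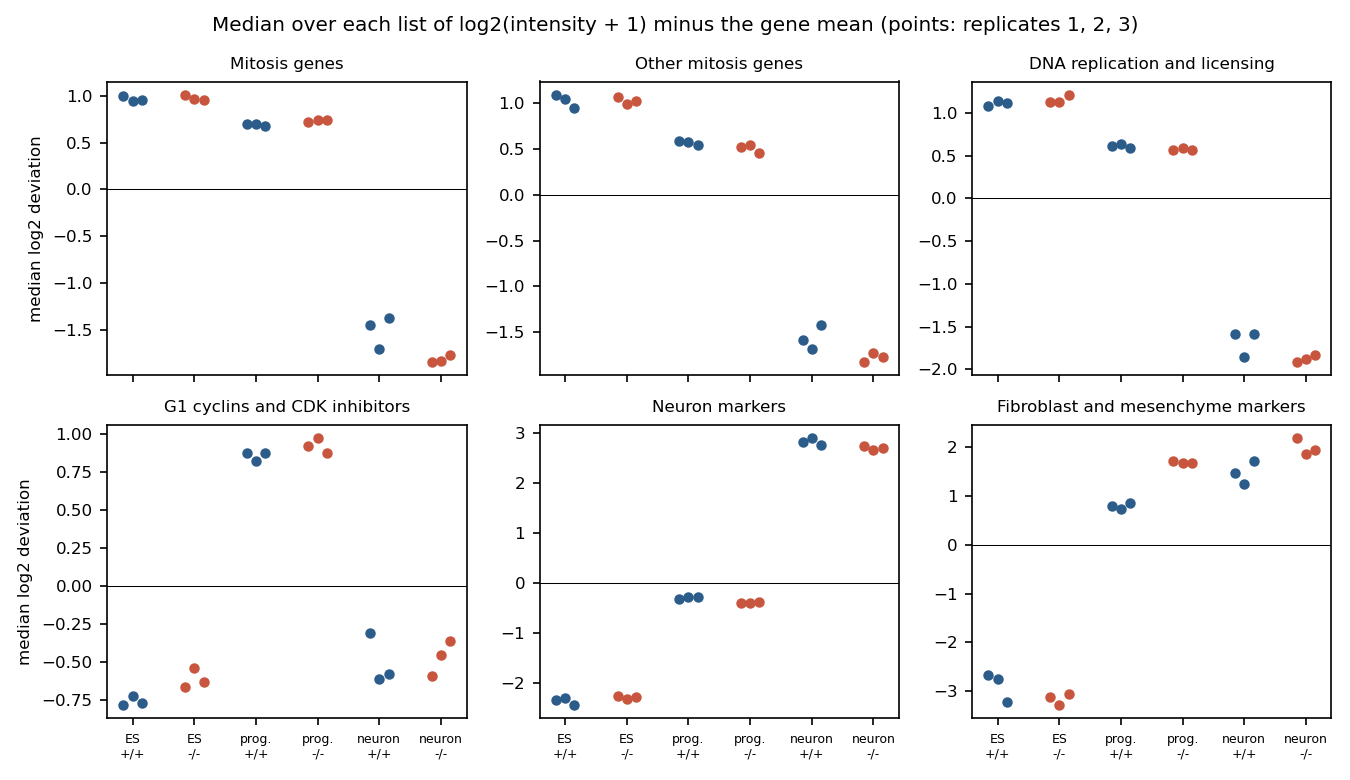
Median over each gene list of log2(intensity + 1) minus the gene's mean, on each array (+/+ in blue, -/- in orange; 3 points a group in the order of replicates 1, 2 and 3; each panel has its own axis). The mitosis, further mitosis and DNA replication lists have the same shape, with +/+ neuron replicate 2 as the lowest +/+ point; the G1 list is highest in progenitors, and the neuron and mesenchyme markers run the other way.

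The tested genes outside the list whose pattern was most like the members' median over the 18 arrays were Spdl1, Spc25 and Cenpa (Pearson r 0.999 each) and Mcm7 and Exo1 (0.998 each). These values are a description over arrays that share 6 groups, and the genes were picked for them. Among the members, Pttg1 (r -0.124), Cdc25b (0.44) and Racgap1 (0.897) were the least like that median.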

How the data were processed

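Total RNA (6 ug per sample) from the 18 samples was labelled and hybridised to 1-colour Affymetrix arrays, per the labels. The authors deposited linear-scale intensity values, 1 per probe set and array, and the submitters' processing notes name RMA and limma. No version or setting is given in the sources used here. Their precision is limited by the number of arrays.

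Values were taken to log2(value + 1). Control probe sets (64 of 45101) and those without exactly 1 gene symbol were left out, which kept 34945. Probe sets that reached the 40th percentile of the array on 3 or more arrays were kept, 26311 in all. A gene was read from its probe set with the highest mean. The linear model (limma 3.58.1, R 4.3.3; lmFit, then contrasts.fit and eBayes) had a mean for each of the 6 groups, used every array and left 12 residual degrees of freedom. Benjamini-Hochberg adjustment ran over all genes tested within a comparison, and "rose", "fell" and "called" mean an adjusted p under 0.05. The fit was tested on simulated data in which each gene varied independently and the cell types shared 1 mean. That test did not cover genes that move together from array to array.

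Named genes were a fixed set (Mki67, Cdk1, Plk1, Aurkb, Top2a, Bub1b, Cdc20 and Hmgn1), the largest called changes among the members (up to 10 per direction between genotypes, 8 between cell types and 4 for interactions), up to 4 per further list, and genes whose probe sets disagreed; others are named with their values. The members, lists and rules were chosen with earlier results of these data known.

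Array replicate numbers showed no pairing of samples across groups over all tested genes. Log2 deviations of same-numbered arrays correlated at -0.199 to 0.116 and those of the others at -0.147 to 0.174. Such a check can miss a pairing that touches few genes or differs between cell types. Alternatives were another summary of probe sets, other filters, pseudocount or normalization, other fits, and leaving out each array in turn.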

Additional observations from a re-analysis of the deposited data

Results flagged for a closer look

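By the limma interaction test, the genotype effect in neurons differed from that in neural progenitors for 16 members and from that in ES cells for 22. Those given here are among the largest that were called. Against neural progenitors, the effect in neurons was lower by a log2 difference of -0.56 for Spag5 (SE 0.13, adjusted p = 0.00888), -0.56 for Kif2c (SE 0.11, adjusted p = 0.00403), -0.55 for Kif11 (SE 0.15, adjusted p = 0.0258) and -0.50 for Ube2c (SE 0.09, adjusted p = 0.00222). Against ES cells it was lower by -0.55 for Aurka (SE 0.09, adjusted p = 6.95e-04), -0.54 for Cdca5 (SE 0.16, adjusted p = 0.0298), -0.52 for Aurkb (SE 0.12, adjusted p = 0.0101) and -0.51 for Kif20a (SE 0.13, adjusted p = 0.0131), and higher by 0.33 for Pttg1 (SE 0.07, adjusted p = 0.0054). Of these, Kif11 lost its call under 8 of the 27 alternatives and Cdca5 under 9.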

How the results depend on the processing

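From progenitors to neurons, 42 members fell and 1 rose in each genotype under each of the 27 alternatives. The number of members called between genotypes in neurons, 28, came to 13 when only the 6 neuron arrays were fitted and ran from 15 to 38 over arrays left out. In progenitors, 1 became 0 over the mean of probe sets, 4 with only the groups compared, 4 with array weights and 2 with trend and robust settings, and ran from 0 to 2 over arrays left out. In ES cells the count ran from 0 to 1, reached without +/+ neuron replicate 3. For the interactions, the count of neurons against progenitors, 16, came to 27 with array weights and 11 to 29 over arrays left out; that of neurons against ES cells, 22, came to 12 with only the groups compared and 16 to 34; that of progenitors against ES cells, 0, came to 2 with only the groups compared and 0 to 1, reached without +/+ ES cell replicate 1. The members' median genotype change in progenitors, 0.02, was 0.00 over the mean of probe sets and 0.01 to 0.04 over arrays left out. Their median in the step from ES cells to progenitors in +/+ cells ran from -0.36 to -0.32, and from progenitors to neurons in -/- cells it was -2.41 over the mean of probe sets and -2.47 with a pseudocount of 16. Aurkb in the first step in +/+ cells turned to -0.12 over the mean of probe sets. The fit on only the groups compared has fewer residual degrees of freedom. The cause of the other shifts was not tested, and the share of all tested genes called under each alternative is not given here.

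With the replicate number as a block, 26 members fell and 1 rose in -/- neurons, 27 in all. The deviations of same-numbered arrays did not correlate over all tested genes, but that check cannot exclude a pairing, and the labels do not state one.

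Of single-gene results, 33 lost and 11 gained a call under the other settings while 1341 kept theirs, and on leaving out an array 85 lost, 13 gained and 2674 kept theirs.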
